A study of Mus musculus with 12 samples.

Results

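The respiratory chain genes of the mouse kidney were followed in wild-type mice, in a polycystic kidney disease (PKD) model and in the same model without *Casp1*. Members were taken by gene name from the deposited count table. They were the protein-coding genes whose names begin with *Nduf*, *Uqcr*, *Atp5* or *Cox4* to *Cox8*, the genes *Sdha* to *Sdhd*, *Cyc1* and *Cycs*, and the *mt-Nd*, *mt-Co*, *mt-Atp* and *mt-Cytb* genes. The rule found 107 of 35275 genes, 94 of them on nuclear chromosomes and 13 on the mitochondrial genome. No measured value entered the rule.

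Oxidative phosphorylation in the inner mitochondrial membrane passes electrons from NADH through complex I, or from succinate through complex II, to coenzyme Q, complex III, cytochrome c and complex IV, and complex V makes ATP from the proton gradient that results. Nearly all subunits are encoded in the nucleus, and a small set of core subunits is encoded by the mitochondrial DNA. Proximal tubule and distal tubule cells are rich in mitochondria, since sodium reabsorption consumes large amounts of ATP.

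Kidneys of 12 C57BL/6J mice aged 6 months were sequenced, 4 in each of 3 groups, and each group held 2 females and 2 males. WT mice carried neither allele. RC/RC mice were homozygous for the hypomorphic *Pkd1* RC allele, and RC/RC:*Casp1*KO mice carried the same *Pkd1* allele together with a homozygous TALEN-made *Casp1* deletion (Del3) that takes out the coding region of the active-site cysteine and the splice donor of exon 6. Both changes were present in all cells of the animal. The count columns name the group and a mouse number but not the sex, so that the sexes were not analysed apart here. There was no *Casp1*KO group on a WT background, so an effect of the deletion was only measured in the presence of the RC allele. In the paper's methods, RC/RC mice were held in populations that included heterozygotes, and WT C57BL/6J mice were kept as well. WT mice are not described there as littermates, so mouse line and RC allele cannot be told apart in comparisons with WT. Reads counted on genes ranged from 20556335 to 22656309 in WT, from 18019819 to 24284831 in RC/RC and from 18738755 to 24869454 in RC/RC:*Casp1*KO. Libraries of a group were not equally alike. The chi-square of their counts over its degrees of freedom was 17.7 for WT mice B6_2 and B6_3 and 16.4 for B6_4 and B6_6, and 89.8 to 127 across these pairs. It was 15.8 for RC/RC:*Casp1*KO mice Del3_60 and Del3_105 and 31.8 for Del3_42 and Del3_70, and 67.1 to 93.4 across them. The RC/RC values ran from 37.2 for RC140 and RC143 to 128 for RC139 and RC143. Whether these pairs follow sex was not tested.

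*Casp1*, which encodes the protease activated by the inflammasome, had 43, 27, 26 and 30 reads in WT mice B6_2, B6_3, B6_4 and B6_6 (mice are named as in the table header, and values follow this order throughout). It had 87, 73, 79 and 61 reads in RC/RC mice RC105, RC139, RC140 and RC143, and 10, 14, 12 and 23 reads in RC/RC:*Casp1*KO mice Del3_60, Del3_105, Del3_42 and Del3_70. The groups did not overlap, and relative to RC/RC the log2 fold change in RC/RC:*Casp1*KO was −2.35 ± 0.32 (SE; edgeR adjusted p = 0.00514). *Pkd1* transcript levels overlapped between groups (adjusted p = 0.878, 0.143 and 0.234 in the 3 comparisons).

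Levels of the members spanned a wide range. On the scale of FPKM (reads per kilobase of gene length and per unit of sequencing depth, computed from the counts and the listed gene lengths), the 92 nuclear members that passed the expression filter ranged in WT kidneys from 1.20 for *Cox4i2* to 1662 for *Atp5b*, the catalytic beta subunit of complex V, with a median of 155. Of the remaining nuclear members, *Cox8c* had 0 reads in every mouse and *Cox7b2* had 1 read in each of WT mouse B6_6 and RC/RC:*Casp1*KO mouse Del3_70. With *Cox8c* and *Cox7b2* counted in, median WT levels were 140 FPKM for complex I, 240 for complex II, 293 for complex III, 145 for complex IV and 265 for complex V, against 18.7 for the complex I assembly factors. CPM below are read counts scaled to a common library size with TMM factors. All nuclear members together took 2.44% ± 0.340 (SD, n = 4) of reads in WT, 2.448% ± 0.188 in RC/RC and 2.20% ± 0.213 in RC/RC:*Casp1*KO. The 13 mitochondrial genes took 9.94% ± 0.491, 10.4% ± 1.67 and 9.07% ± 1.13 in the same order. Both shares overlapped between the groups.

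The largest fold change of any member in both comparisons with WT was that of *Ndufs5*, an accessory subunit of complex I encoded at chr4:123712710-123718202 (mm10, minus strand). It was counted at 2044, 1936, 1404 and 1607 reads in the WT mice, 166, 204, 137 and 149 in the RC/RC mice and 178, 122, 124 and 121 in the RC/RC:*Casp1*KO mice. Every mouse of both RC groups was far below every WT mouse. The log2 fold change was −3.45 ± 0.20 in RC/RC against WT (10.9-fold lower, adjusted p = 3.16e-05), −3.74 ± 0.14 in RC/RC:*Casp1*KO against WT (13.4-fold lower, adjusted p = 2.21e-06) and −0.31 ± 0.20 between the RC groups (adjusted p = 0.327).

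This difference was met by an opposite one in a processed copy of the gene. The copy, listed as BC002163 in the table and as *Ndufs5-ps* in GENCODE, is at chr16:42955631-42955949 (mm10, plus strand). It held 18, 6, 19 and 14 reads in WT, 1880, 1826, 2019 and 1931 in RC/RC and 2049, 1421, 1401 and 1243 in RC/RC:*Casp1*KO. The copy thus took 0.845% of the reads of the pair in WT, 92.1% in RC/RC and 91.8% in RC/RC:*Casp1*KO. The transcript *Ndufs5-201* and the copy in the GRCm39 reference differ at 2 of 504 aligned bases (99.6% identity). Both differences, T81C and A105G, fall at the third base of a codon, with positions counted from the first coding base and the *Ndufs5* base written first. Bases of the transcript outside the aligned stretch can also tell reads of the loci apart. The coding stretch from base 51 to base 111 is shown for both loci because it holds the only 2 bases at which the aligned stretch differs, in capitals:

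Ndufs5: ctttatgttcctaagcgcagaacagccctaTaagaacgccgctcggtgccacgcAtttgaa

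Ndufs5-ps: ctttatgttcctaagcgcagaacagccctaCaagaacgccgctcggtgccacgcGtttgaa

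When reads of the gene and the copy were added, the 3 groups overlapped. The sums were 2062, 1942, 1423 and 1621 reads in WT, 2046, 2030, 2156 and 2080 in RC/RC and 2227, 1543, 1525 and 1364 in RC/RC:*Casp1*KO. The log2 fold change of the sum was 0.21 ± 0.16 in RC/RC against WT (adjusted p = 0.404), −0.36 ± 0.16 in RC/RC:*Casp1*KO against RC/RC (adjusted p = 0.147) and −0.14 ± 0.14 in RC/RC:*Casp1*KO against WT (adjusted p = 0.55). This sum was chosen after the data were seen. The bases that the mice carry at these positions were not analysed here, and which locus the reads came from was not tested. Of the 10 tested genes nearest to *Ndufs5* on chromosome 4, 2 passed the test in RC/RC against WT, with *Rhbdl2* lower (−1.68) and *Heyl* higher (1.15), where 12.9% of all genes tested did.

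**Figure D1:**
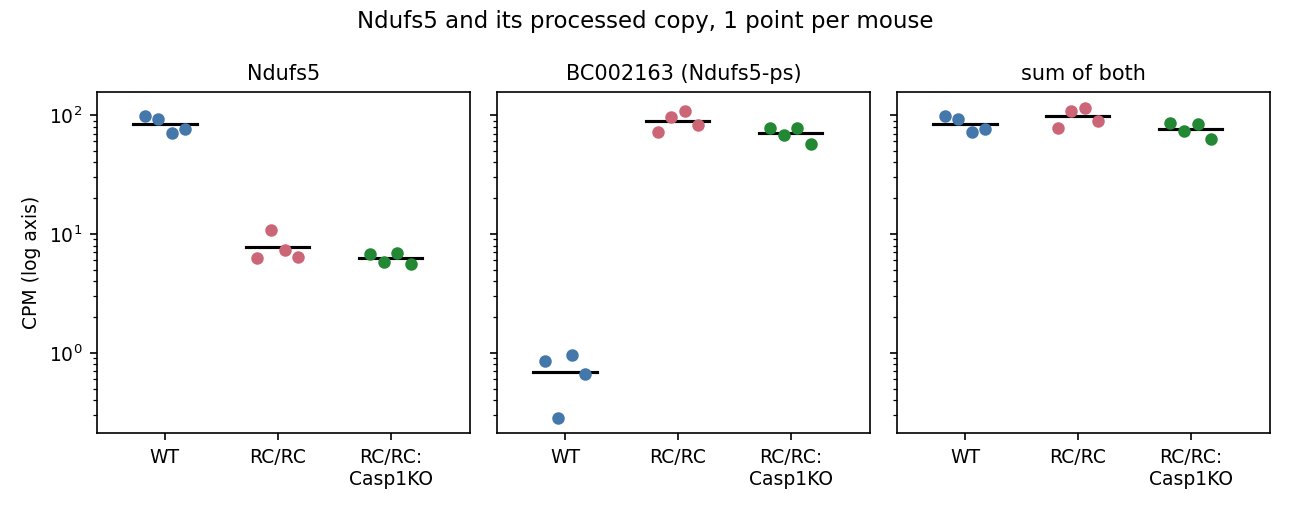
CPM (log axis) of *Ndufs5*, of its processed copy and of their sum, with 1 point per mouse and the group mean as a line. The WT mice are high for the gene and below 1 CPM for the copy, the mice of both RC groups show the reverse, and the sums overlap.

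In RC/RC against WT, the question was whether the cystic kidney differed from the normal one in respiratory chain transcripts. The nuclear members lay on both sides of their WT level, with 44 above and 48 below 0 and a median log2 fold change of −0.01, beside −0.02 over all 15243 genes tested. Of all genes tested, 52.2% lay below 0. This split depended on the processing, since 31 of 92 members lay below 0 with scaling by library size alone or with limma, and 86 of 92 with the trend on gene length removed (median −0.26). Among 92 nuclear members 3 passed the test (edgeR quasi-likelihood, Benjamini-Hochberg adjusted p under 0.05), 1 higher and 2 lower, where 12.9% of all genes tested did, 9.76% higher and 3.18% lower. These were *Ndufs5* (above), *Atp5sl* and *Cox6b2*. Unadjusted p was under 0.05 for 3 members that were higher and 5 that were lower, against 17.3% and 12% of all genes (29.2% in either direction). The groups did not overlap for 1 higher member, *Cox6b2*, and 3 lower ones, *Ndufs5*, *Atp5sl* and *Cox6a2*, beside 12.6% and 7.06% of all genes. In bulk kidney RNA, fewer cells of a type and less RNA per cell cannot be told apart, and this holds for all differences given here.

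*Cox6b2*, the testis-type isoform of a complex IV subunit (chr7:4751792-4753094), was counted at 7.20, 9.95, 4.02 and 6.17 CPM in WT and 18.1, 19.5, 16.3 and 10.3 CPM in RC/RC. All RC/RC mice were above all WT mice, 2.35-fold on average (log2 fold change 1.23 ± 0.28, adjusted p = 0.0204). The call was lost without RC/RC mouse RC139 (adjusted p = 0.0601), RC/RC mouse RC140 (0.0525) or WT mouse B6_6 (0.0624), and with the trend on gene length removed. In RC/RC:*Casp1*KO it stood at 23.8, 27.7, 15.5 and 11.3 CPM, again above every WT mouse, with a log2 fold change of 1.52 ± 0.34 against WT that missed the threshold (adjusted p = 0.0562). Its common counterpart *Cox6b1* was far more abundant, at 667 FPKM in WT beside 11.1 for *Cox6b2*. *Cox6b1* had a log2 fold change of 0.33 ± 0.19 in RC/RC against WT (adjusted p = 0.286). FPKM of *Cox6b2* as a percent of that of *Cox6b1* was 1.63% ± 0.374 (SD, n = 4) in WT, 3.20% ± 1.02 in RC/RC and 5.05% ± 2.04 in RC/RC:*Casp1*KO.

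*Atp5sl*, also known as *Dmac2* and needed for assembly of the membrane arm of complex I (chr7:25619414-25625551), was counted at 64.8, 69.3, 63.5 and 68.5 CPM in WT, 47.2, 52.6, 57.2 and 53.7 in RC/RC and 66.6, 66.9, 66.3 and 63.0 in RC/RC:*Casp1*KO. The RC/RC mice were below all mice of the other groups. It fell in RC/RC against WT by 0.34 ± 0.09 on the log2 scale (adjusted p = 0.041) and was 0.31 ± 0.09 higher in RC/RC:*Casp1*KO than in RC/RC, where it missed the threshold (adjusted p = 0.0605). With any 1 of the 8 mice left out, the RC/RC against WT call was lost (adjusted p from 0.0537 to 0.116).

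The catalytic and core subunits did not pass the test in this comparison. *Sdha*, the flavoprotein of complex II, was at 1085, 1150, 837 and 933 CPM in WT and 820, 585, 710 and 931 CPM in RC/RC, with overlapping groups (−0.40 ± 0.18, adjusted p = 0.178). *Ndufs1*, the largest subunit of complex I, had a log2 fold change of −0.37 ± 0.16 (adjusted p = 0.15) and *Atp5b* of −0.29 ± 0.17 (adjusted p = 0.282). The values for *Ndufv1*, *Sdhb*, *Uqcrc1*, *Uqcrfs1*, *Cyc1*, *Cycs* and *Atp5a1* lay between −0.25 and 0.09. By complex, the median log2 fold change was 0.00 for the 36 nuclear complex I subunits, −0.18 for complex II, −0.02 for complex III, 0.10 for complex IV and −0.09 for complex V.

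In RC/RC:*Casp1*KO against RC/RC, the question was what loss of *Casp1* changed in the cystic kidney. Nuclear members were lower almost throughout, with 83 of 92 below 0 and a median log2 fold change of −0.32, beside −0.03 over all 15428 genes tested and 52.5% of these below 0. The 1205 other tested genes under 1000 bases had a median of −0.31, and with the length trend removed the nuclear median was −0.15, with 73 of 92 below 0 and none called lower. Few single members passed the test. The 3 called were *Ndufb2*, which rose, and *Cox4i2* and *Ndufa4l2*, which fell, beside 11.6% of all genes tested (7.23% higher and 4.41% lower). Unadjusted p was under 0.05 for 27 lower and 2 higher members, where 16.4% of all genes were lower and 15.3% higher by that measure (31.7% in either direction). The groups did not overlap for 2 higher members, *Ndufb2* and *Atp5sl*, and 3 lower ones, *Cox4i2*, *Ndufa4l2* and *Atp5g2*, beside 11.8% and 8.67% of all genes. The medians were −0.34 for complex I, −0.14 for complex II, −0.37 for complex III, −0.36 for complex IV and −0.31 for complex V, and each lay below the median of all genes.

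*Ndufs4*, an accessory subunit of the complex I matrix arm, had 112, 105.4, 80.3 and 92.2 CPM in WT, 87.3, 114, 126 and 99.9 in RC/RC and 80.4, 77.4, 90.0 and 67.7 in RC/RC:*Casp1*KO. It had the lowest p of the uncalled lower members (−0.45 ± 0.14, adjusted p = 0.0694). *Uqcrq*, a small subunit of complex III, was lower by 0.52 ± 0.22 (adjusted p = 0.135), *Cox6a1* of complex IV by 0.50 ± 0.20 (adjusted p = 0.126) and *Cox4i1*, its main subunit IV, by 0.41 ± 0.18 (adjusted p = 0.153). The values of *Ndufs1*, *Ndufv1*, *Sdha*, *Sdhb*, *Uqcrc1*, *Uqcrfs1*, *Cyc1*, *Atp5a1* and *Atp5b* ran from −0.23 for *Uqcrc1* to 0.15 for *Sdha*. Other core subunits of complex I were lower, with *Ndufs8* at −0.40 (adjusted p = 0.178), *Ndufs7* at −0.36 (adjusted p = 0.208) and *Ndufv2* at −0.31 (adjusted p = 0.206), and none of them passed the test.

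RC/RC mouse RC105 was the lowest of the RC/RC mice in these genes. The median over nuclear members of the log2 CPM, taken relative to each gene's mean over the 12 mice, was 0.30, 0.26, −0.13 and −0.03 in the WT mice, −0.19, 0.18, 0.35 and 0.03 in the RC/RC mice, and −0.08, −0.23, −0.02 and −0.41 in the RC/RC:*Casp1*KO mice. The groups overlapped. Without RC/RC mouse RC105, 20 nuclear members were lower and 1 higher in RC/RC:*Casp1*KO against RC/RC, beside 17.8% of all genes called, 8.3% as lower, and the median was −0.41. Without RC/RC mouse RC140 no nuclear member was called (2.77% of all genes). *Ndufb2* was the sole call without RC/RC mouse RC139 (4.79% of all genes called). The same held without any 1 of the 4 RC/RC:*Casp1*KO mice (2.8% to 9.04% of all genes called). Without RC/RC mouse RC140 *Ndufb2* had an adjusted p of 0.0537. The median stayed between −0.41 and −0.23 with any 1 of the 8 mice left out.

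**Figure D2:**
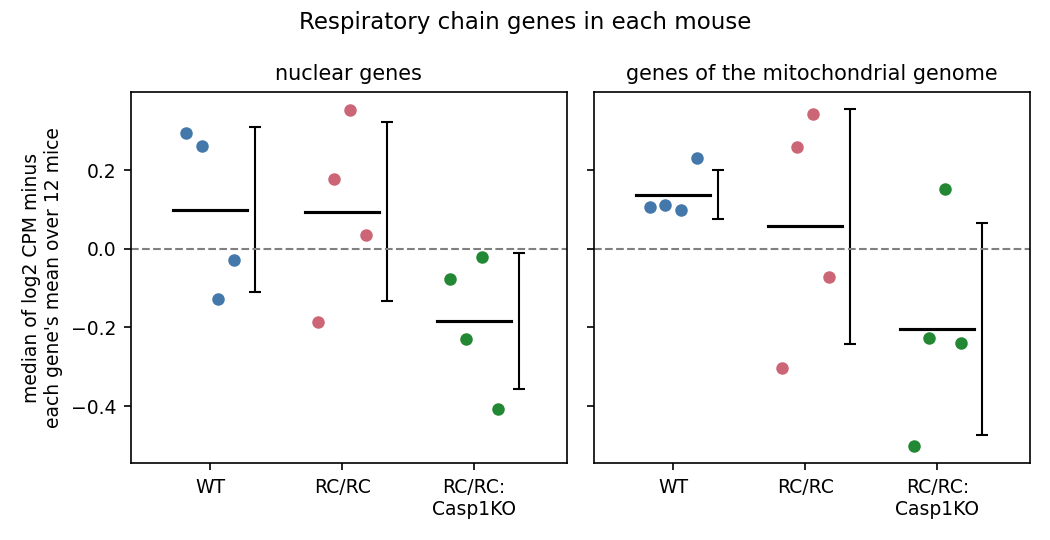
Median over the tested members of log2 CPM minus each gene's mean over the 12 mice, for nuclear genes (left) and mitochondrial genes (right), with 1 point per mouse, the group mean as a line and the SD as a bar. The RC/RC:*Casp1*KO mice lie below 0 for nuclear genes, while 2 WT mice and 1 RC/RC mouse do so too.

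*Cox4i2* and *Ndufa4l2* are minor, hypoxia-responsive relatives of *Cox4i1* and *Ndufa4*. *Ndufa4l2* (chr10:127514939-127517152) was counted at 7.01, 5.05, 4.53 and 3.53 CPM in WT, 8.53, 17.3, 10.7 and 5.58 in RC/RC and 4.47, 4.81, 4.93 and 5.52 in RC/RC:*Casp1*KO. All RC/RC mice were above all RC/RC:*Casp1*KO mice, narrowly so for RC/RC mouse RC143. The log2 fold change was −1.10 ± 0.30 in RC/RC:*Casp1*KO against RC/RC (2.14-fold lower, adjusted p = 0.0465), 1.06 ± 0.34 in RC/RC against WT (adjusted p = 0.0729) and −0.02 ± 0.22 in RC/RC:*Casp1*KO against WT (adjusted p = 0.962).

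*Cox4i2* (chr2:152754173-152765037) had 35, 14, 15 and 13 reads in WT, 40, 50, 50 and 20 in RC/RC and 21, 17, 12 and 16 in RC/RC:*Casp1*KO. The RC/RC:*Casp1*KO mice, at 0.665 to 0.810 CPM, were below the RC/RC mice, whose lowest was 0.858 CPM. It was 2.54-fold lower in RC/RC:*Casp1*KO (−1.34 ± 0.38, adjusted p = 0.0485), and 1.05 ± 0.46 higher in RC/RC than in WT without passing the test (adjusted p = 0.166). Both calls were lost without RC/RC mouse RC139, RC/RC mouse RC140 or any 1 of the 4 RC/RC:*Casp1*KO mice. Without RC/RC mouse RC139 the log2 fold changes were −1.13 for *Cox4i2* (adjusted p = 0.135) and −0.73 for *Ndufa4l2* (adjusted p = 0.103). Neither was called with scaling by library size alone, with mitochondrial genes left out of the scaling, with the length trend removed or with limma. *Cox4i2*, but not *Ndufa4l2*, also lost its call with RLE size factors, a filter of at least 1 count or a dispersion shared by 12 mice.

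*Ndufb2*, an accessory subunit of the complex I membrane arm, was the only nuclear member called higher by edgeR with TMM scaling between the RC groups, and *Atp5sl* was called higher as well under 6 of 11 alternatives. It was counted at 6.58, 5.00, 6.29 and 7.87 CPM in WT, 5.35, 4.39, 4.40 and 4.63 in RC/RC and 8.82, 7.05, 8.32 and 8.65 in RC/RC:*Casp1*KO. All RC/RC:*Casp1*KO mice were above all RC/RC mice, and the WT mice overlapped both groups. The log2 fold change was 0.79 ± 0.15 (1.74-fold, adjusted p = 0.0155). Its level of 1.40 FPKM in WT was the second lowest of the 92 members, far under the complex I median. The listed *Ndufb2* gene (chr6:39592574-39603382, plus strand, 4371 bases) shares 4022 bases of its span with *Adck2* on the same strand, and 146 bases with *Braf* on the other strand. How the counting treated shared bases is not given in the sources used here. *Adck2* itself had a log2 fold change of 0.15 (adjusted p = 0.243) and *Braf* of 0.54 (adjusted p = 0.104).

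**Figure D3:**
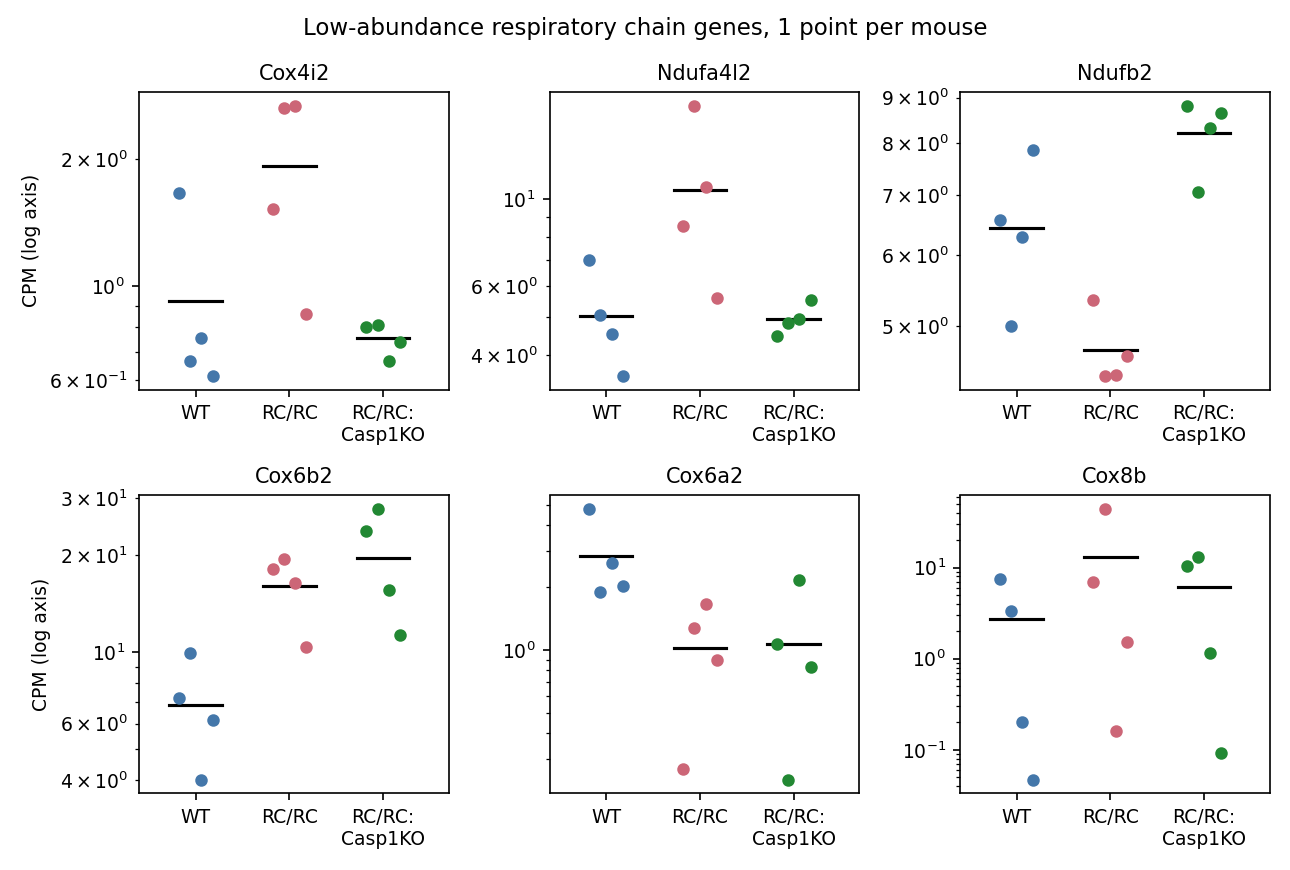
CPM (log axis) of 6 low-abundance members, with 1 point per mouse and the group mean as a line. *Cox4i2* and *Ndufa4l2* have their highest mean in RC/RC and *Ndufb2* its lowest, *Cox6b2* is higher in both RC groups than in WT, and *Cox8b* varies within each group by over 10-fold.

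In RC/RC:*Casp1*KO against WT, the question was how far cystic kidneys without *Casp1* differed from normal ones. Of 92 nuclear members 89 lay below 0, with a median log2 fold change of −0.29 beside 0.01 over all 15346 genes tested, of which 48.5% lay below 0. Only *Ndufs5* passed the test (2.03% of all genes tested did, 0.893% lower), and with reads of its copy added none did. Unadjusted p was under 0.05 for 28 lower members and 1 higher, where 9.99% and 11.8% of all genes were lower and higher (21.8% in either direction). The groups did not overlap for 1 higher member, *Cox6b2*, and 5 lower ones, *Ndufs5*, *Ndufa3*, *Ndufaf2*, *Uqcrq* and *Atp5l*, beside 7.4% and 6.54% of all genes. DESeq2 called 7 nuclear members, with *Atp5l*, *Ndufa3*, *Ndufaf1*, *Ndufaf2*, *Ndufc2* and *Ndufs5* lower and *Cox6b2* higher, where it called 5.89% of all genes it tested.

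*Ndufa3*, an accessory subunit of complex I, had 161, 164, 120 and 128 CPM in WT, 94.8, 158, 158 and 121 in RC/RC and 102, 94.1, 113 and 81.8 in RC/RC:*Casp1*KO. All RC/RC:*Casp1*KO mice were below all WT mice, while the RC/RC mice overlapped both groups (−0.55 ± 0.14 against WT, adjusted p = 0.0858). The assembly factor *Ndufaf2* was likewise below every WT mouse (−0.37 ± 0.10, adjusted p = 0.104). The medians were −0.30 for complex I, −0.27 for complex II, −0.28 for complex III, −0.28 for complex IV and −0.30 for complex V. Each group enters 2 of the 3 comparisons, so that these are not independent of each other.

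**Figure D4:**
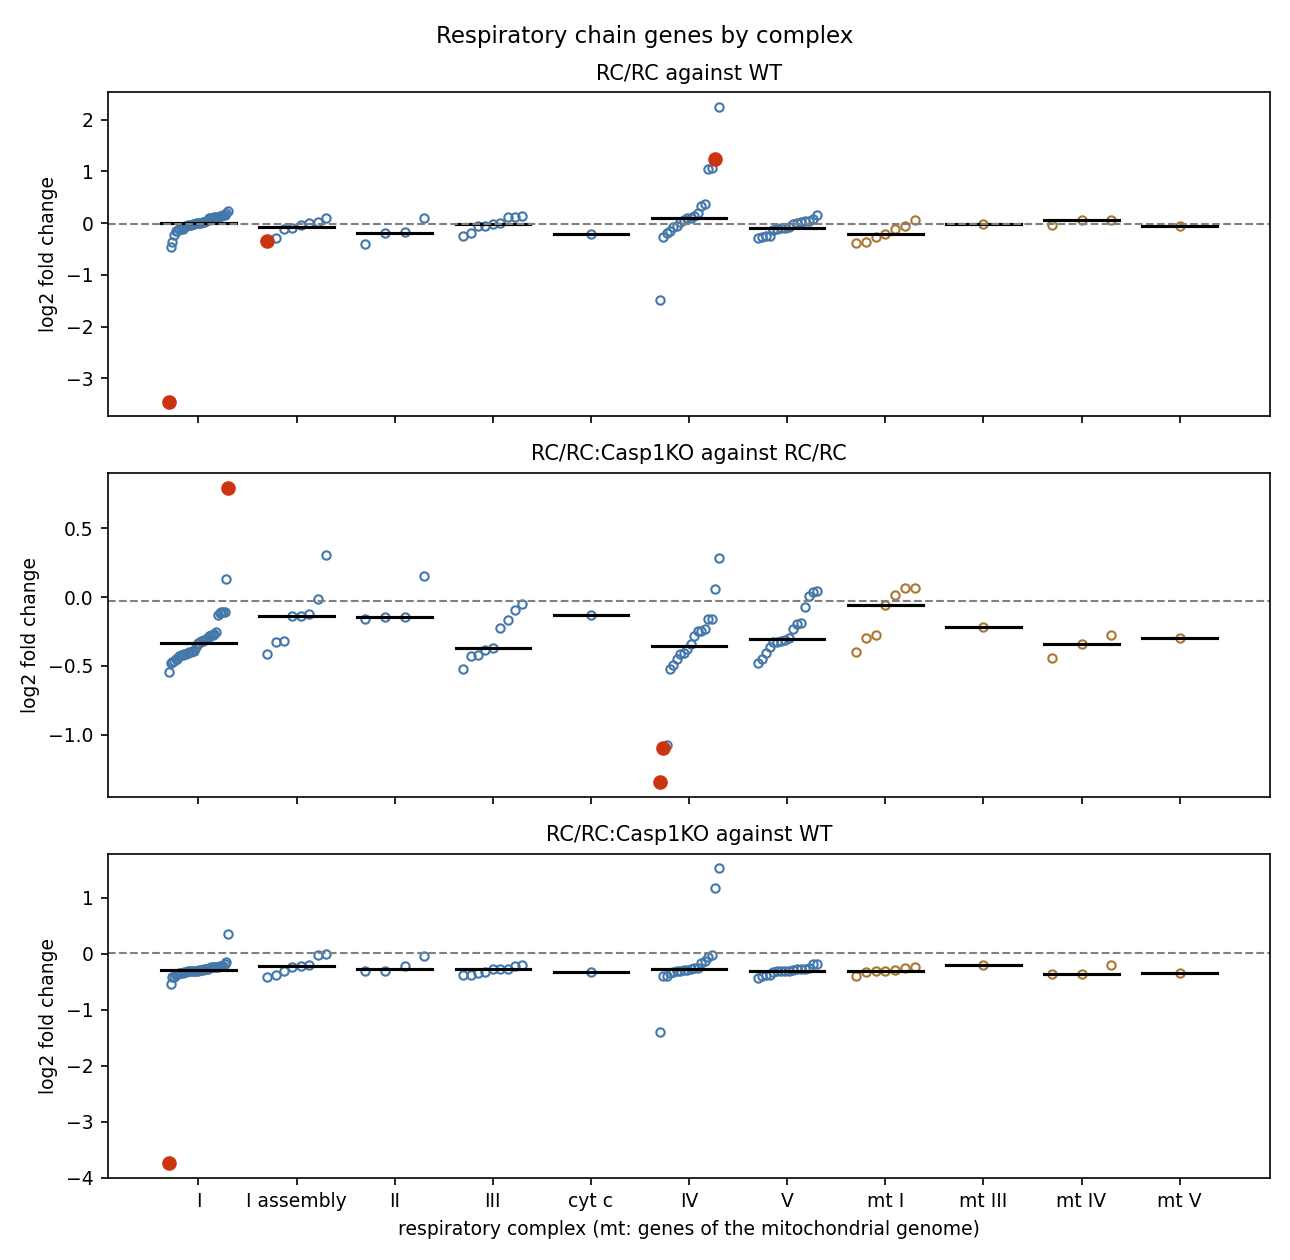
Log2 fold change of every tested member by complex in the 3 comparisons, with nuclear genes in blue, mitochondrial genes in brown, members past the test as filled red points, medians as black lines and the median of all genes tested as a dashed line. Nuclear complexes lie near the dashed line in RC/RC against WT and below it in both comparisons of RC/RC:*Casp1*KO.

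Isoforms of heart and muscle type varied widely within groups. *Cox8b*, the heart and muscle isoform of a complex IV subunit, was counted at 156, 70, 4 and 1 reads in the WT mice, 182, 830, 3 and 36 in the RC/RC mice and 273, 273, 21 and 2 in the RC/RC:*Casp1*KO mice. Each group held 2 mice with more and 2 with fewer reads, and in WT and RC/RC:*Casp1*KO these were the pairs of like libraries given above. No comparison passed the test (adjusted p = 0.328, 0.626 and 0.625). Among markers of brown fat, *Ucp1* had 497 reads and *Cidea* 660 in RC/RC mouse RC139, and at most 53 and 34 in the other 11 mice. The summed level of *Ucp1*, *Cidea* and *Dio2* was 66.0 CPM in RC/RC mouse RC139 and at most 5.00 CPM in any other mouse. *Cox7a1* was also highest in RC/RC mouse RC139, at 34.6 CPM against 10.4 to 24.5 CPM elsewhere. The skeletal muscle markers *Acta1*, *Myh4*, *Ckm* and *Tnnt3* together stayed at or below 0.529 CPM. The part of brown fat RNA in the *Cox8b* values was not tested. Without RC/RC mouse RC139 the RC/RC against WT value for *Cox8b* moved from 2.25 to 0.05. *Cox6a2*, a heart and muscle isoform, ranged from 1.91 to 4.77 CPM in WT and from 0.268 to 1.66 CPM in RC/RC, without overlap, and missed the threshold (−1.48 ± 0.51, adjusted p = 0.0884). All 931 bases of its span are shared with *Itgad* on the other strand, and the strand setting of the counting is not given in the sources used here.

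The genes of the mitochondrial genome are transcribed as long precursors from both strands and were therefore described apart. Of 13 genes, 12 passed the expression filter, and *mt-Atp8* did not, with 2 to 9 reads a mouse. In WT kidneys *mt-Co1*, the catalytic subunit of complex IV, was at 22300 FPKM, *mt-Cytb* of complex III at 15990 and *mt-Nd1* of complex I at 13850, while *mt-Co2* was at 300, *mt-Nd3* at 236, *mt-Co3* at 194, *mt-Atp6* at 161 and *mt-Nd4l* at 42.4. The genes at low levels lie almost wholly within near-identical sequence of the nuclear genome. Copies on chromosome 1 cover at least 99.1% of *mt-Co2*, *mt-Co3*, *mt-Atp6*, *mt-Atp8*, *mt-Nd3* and *mt-Nd4l* at 98% identity or more, and genes listed at these copies took 55.1% of the summed reads of *mt-Co2* and its copy in WT, 50.6% for *mt-Co3*, 64.6% for *mt-Atp6*, 51.9% for *mt-Nd4l* and 26.4% for *mt-Nd3*. Copies also cover 63.6% of *mt-Nd4* and 31.3% of *mt-Co1*, both at high levels, and took 0.804% and 0.453% of the summed reads. *mt-Cytb*, *mt-Nd1*, *mt-Nd2*, *mt-Nd5* and *mt-Nd6* had no such copy. Within stretches that align at 100% identity, reads of a gene and of its nuclear copy cannot be told apart. This holds for the aligned bases of all genes with a copy except *mt-Co1*, whose copy has 99.8% identity over 483 bases.

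No mitochondrial gene passed the test in any comparison with edgeR, and none with limma, while DESeq2 called 1, *mt-Nd2* in RC/RC:*Casp1*KO against WT. In RC/RC against WT the median log2 fold change was −0.05, 9 of 12 genes lay below 0 (52.2% of all genes tested did) and 1 gene, *mt-Nd4l*, had an unadjusted p under 0.05 (−0.39 ± 0.15, adjusted p = 0.121), beside 12% of all genes lower by that measure. The median was 0.04 with scaling by library size alone. With the length trend removed it was −0.34 and 3 genes were called lower, beside 15.2% of all genes called. Against RC/RC, the median in RC/RC:*Casp1*KO was −0.28, with 9 of 12 below 0 (52.5% of all genes) and none at an unadjusted p under 0.05 (16.4% of all genes lower). Against WT, all 12 values of RC/RC:*Casp1*KO lay below 0, from −0.40 to −0.21, and 4 had an unadjusted p under 0.05, namely *mt-Nd2*, *mt-Co2*, *mt-Co3* and *mt-Atp6*, beside 48.5% and 9.99% of all genes. With reads of the nuclear copies added, the medians were −0.06, −0.27 and −0.32 and no gene was called.

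*mt-Co1* was counted at 37360, 39450, 31280 and 37260 CPM in WT, 30830, 43480, 41520 and 35400 in RC/RC and 31260, 32450, 36350 and 25420 in RC/RC:*Casp1*KO. The 3 groups overlapped (log2 fold changes 0.06 ± 0.23, −0.28 ± 0.26 and −0.21 ± 0.17). *mt-Nd2*, a core subunit of complex I, was at 9810, 10190, 9810 and 11640 CPM in WT, 6774, 10860, 11490 and 9087 in RC/RC and 6329, 7513, 9672 and 7822 in RC/RC:*Casp1*KO. Here every RC/RC:*Casp1*KO mouse was below every WT mouse, by a narrow margin for mouse Del3_42 (−0.40 ± 0.16, adjusted p = 0.2). RC/RC mouse RC105 and RC/RC:*Casp1*KO mouse Del3_60 were the lowest of their groups for *mt-Nd2* and *mt-Cytb*, as they were for the median of all mitochondrial genes (−0.30 and −0.50). Libraries were made from poly(A) RNA, and how well the tails of mitochondrial transcripts were captured was not tested.

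Gene length moved with these differences. Nuclear members are short, with a median listed length of 992 bases. Between the RC groups, where other short genes had about the median of the nuclear members (above), the medians of all genes in 5 classes of rising length ran from −0.26 for the shortest to 0.19 for the longest. In RC/RC against WT the other short genes had a median of 0.20 and the nuclear members −0.01. Between RC/RC:*Casp1*KO and WT the other short genes were at −0.04 and the nuclear members at −0.29. With the length trend removed from each library, the nuclear medians were −0.26, −0.15 and −0.39 in the 3 comparisons, and the medians of all genes −0.12, −0.03 and −0.09. The calls then changed. In RC/RC against WT 9 nuclear members were lower (*Ndufs5*, *Cox6a2*, *Ndufa1*, *Ndufa4*, *Atp5l*, *Cox5a*, *Ndufaf1*, *Ndufc2* and *Atp5sl*) and 3 mitochondrial genes (*mt-Nd3*, *mt-Nd4l* and *mt-Nd6*) and none was higher, beside 15.2% of all genes called. Between the RC groups *Ndufb2* and *Atp5sl* were higher and none lower (9.99% of all genes). In RC/RC:*Casp1*KO against WT 7 nuclear members and *mt-Nd4l* were lower (2.65% of all genes). The part of transcript length in these values was not tested.

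**Figure D5:**
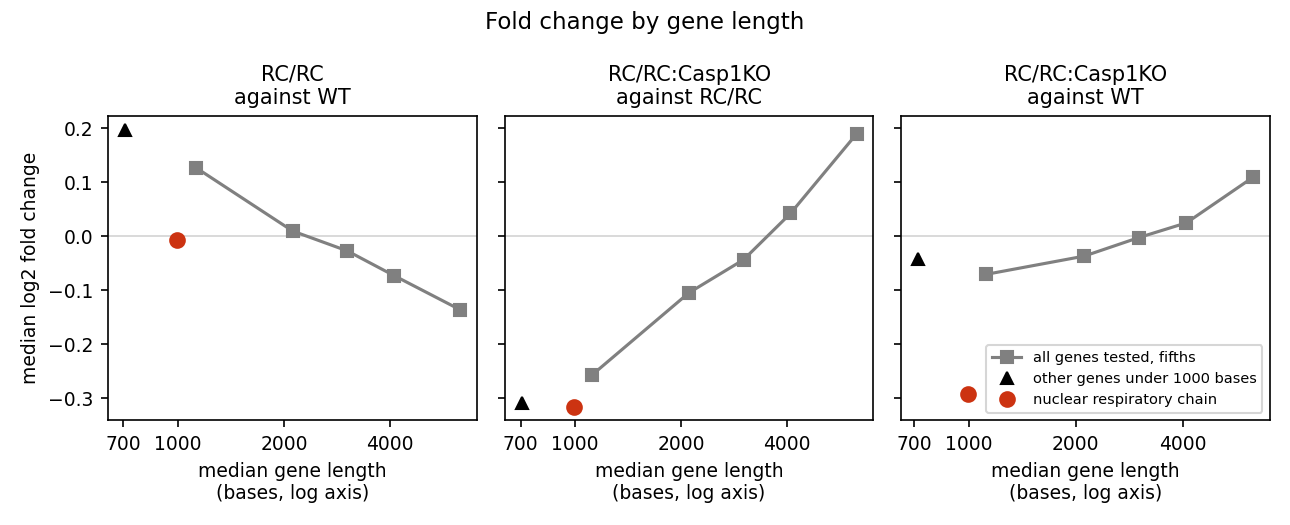
Median log2 fold change against median listed gene length (log axis) for 5 length classes of all genes tested (grey), for other genes under 1000 bases (triangle) and for the nuclear members (red). The nuclear members lie beside other short genes in the comparison of the RC groups and below them in both comparisons with WT.

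Genes that build or regulate the chain were taken from lists chosen with earlier results of these data known. Of 12 regulators of mitochondrial genes, 2 fell in RC/RC against WT, a share of 16.7% beside 12.9% of all genes called in that comparison (3.18% lower). At an unadjusted p under 0.05, 7 of the 12 were lower and none higher, beside 12% and 17.3% of all genes, and their median was −0.31. Counts in the lists that follow can be read against the same share, against 11.6% between the RC groups and against 2.03% in RC/RC:*Casp1*KO against WT. *Ppara*, the fatty acid-sensing nuclear receptor, was at 85.5, 101, 76.9 and 91.6 CPM in WT, 55.2, 31.2, 45.5 and 57.8 in RC/RC and 75.1, 77.7, 77.8 and 72.6 in RC/RC:*Casp1*KO. All RC/RC mice were below all others (−0.90 ± 0.19 against WT, adjusted p = 0.013), and *Ppara* rose in RC/RC:*Casp1*KO against RC/RC by 0.66 ± 0.18 (adjusted p = 0.0421). *Ppargc1a*, the coactivator of mitochondrial biogenesis, was at 102, 110, 76.6 and 96.1 CPM in WT and 83.7, 43.4, 48.2 and 56.2 in RC/RC, with RC/RC mouse RC105 within the WT range (−0.73 ± 0.21, adjusted p = 0.0475). Its relative *Ppargc1b* rose in RC/RC:*Casp1*KO against RC/RC by 1.03 ± 0.21 (adjusted p = 0.0194) and against WT by 0.69 ± 0.14 (adjusted p = 0.0483). *Esrra*, *Esrrg*, *Nrf1* and *Gabpa*, which bind promoters of respiratory chain genes, did not pass the test in any comparison, and *Nrf1* had log2 fold changes of 0.03, 0.00 and 0.05.

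For transcription of the mitochondrial genome, 1 of 18 listed genes was called in RC/RC against WT, as lower, beside 3.18% of all genes. Of the 18, 16 lay below 0 (52.2% of all genes did), with a median of −0.24. At an unadjusted p under 0.05, 3 were lower (12% of all genes). Between the RC groups 4 of the 18 lay below 0 (52.5% of all genes), with a median of 0.19. There 3 were higher at an unadjusted p under 0.05 (15.3% of all genes), and none was called. *Polrmt*, the mitochondrial RNA polymerase, was at 49.3 to 55.1 CPM in WT, 35.1 to 43.7 in RC/RC and 40.2 to 47.5 in RC/RC:*Casp1*KO, and fell by 0.38 ± 0.10 in RC/RC (adjusted p = 0.0315). *Tfam*, which packages mitochondrial DNA, had log2 fold changes of −0.08, −0.05 and −0.11 and was not called. Among 19 tested complex IV assembly factors, *Cox18*, an insertase for the *mt-Co2* protein, rose in RC/RC against WT (0.85 ± 0.17, adjusted p = 0.0118), *Cox15*, which makes heme A, fell (−0.49 ± 0.14, adjusted p = 0.047), and the copper chaperone *Cox17* rose in RC/RC:*Casp1*KO against RC/RC (1.18 ± 0.19, adjusted p = 0.00859). *Cox17*, like *Ndufb2*, had a low level (1.27 FPKM in WT) and a listed span shared with another gene on its strand, *Gm21987*. Of 11 coenzyme Q genes, *Adck3* fell in RC/RC against WT (−0.64 ± 0.15, adjusted p = 0.0193). The list of complex I assembly factors was of genes outside the *Nduf* names and did not hold *Atp5sl*. No gene of this list or of those for complexes II, III and V was called with edgeR in any comparison. At most 2 had an unadjusted p under 0.05 per list and comparison. DESeq2 called 1, from the complex V list in RC/RC:*Casp1*KO against WT, and other alternatives called up to 2 of that list in both comparisons with WT.

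The mitochondrial ribosomal proteins translate the mitochondrial messages. Of 76 tested, 75 lay below 0 in RC/RC:*Casp1*KO against RC/RC, beside 52.5% of all genes. Their median was −0.32, beside −0.03 for all genes and −0.31 for the 1205 tested genes under 1000 bases outside the respiratory chain. Of the 76, 3 fell, beside 4.41% of all genes called lower, namely *Mrpl52* (−0.66 ± 0.17, adjusted p = 0.0374), *Mrpl55* (−0.47 ± 0.13, adjusted p = 0.0454) and *Mrpl48* (−0.35 ± 0.10, adjusted p = 0.0499). At an unadjusted p under 0.05, 30 of the 76 were lower, beside 16.4% of all genes. In RC/RC against WT their median was 0.06 and none was called with edgeR, DESeq2 or limma, with 1 higher at an unadjusted p under 0.05. Against WT, their median in RC/RC:*Casp1*KO was −0.23 and *Mrps12* fell (−0.89 ± 0.15, adjusted p = 0.0242), with 22 lower at an unadjusted p under 0.05, beside 9.99% of all genes. Tested genes under 1000 bases outside the respiratory chain had a median of −0.04 there. The part of gene length in the values of the mitochondrial ribosomal proteins was not tested. The citric acid cycle genes, which supply electrons to the chain, lay below 0 in 13 of 13 cases in RC/RC against WT (median −0.23) and in RC/RC:*Casp1*KO against WT (median −0.27). None of them was called with edgeR or limma, 5 had an unadjusted p under 0.05 in each of these comparisons, and DESeq2 called 2 in each. Of all genes, 12% and 9.99% were lower at an unadjusted p under 0.05, and DESeq2 called 12.6% and 5.89% of those it tested.

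Targets of hypoxia-inducible factor were split. *Hk2*, a hexokinase of glycolysis, rose in RC/RC against WT (2.51 ± 0.43, adjusted p = 0.00603), while *Vegfa* fell (−0.79 ± 0.20, adjusted p = 0.0276), as did *Ndrg1* (−0.99 ± 0.22, adjusted p = 0.0179). *Vegfa* rose in RC/RC:*Casp1*KO against RC/RC (0.96 ± 0.13, adjusted p = 0.0041). The other 9 of 12 listed targets were not called in RC/RC against WT, where 12.9% of all genes were.

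Markers of kidney and other cell types moved with the groups, and their part in the values of the respiratory chain genes was not tested. All 10 proximal tubule markers were measured in these kidneys, with *Slc34a1* the most abundant. Their summed level was 13550 ± 2113 CPM (SD, n = 4) in WT, 8572 ± 2758 in RC/RC and 13240 ± 1129 in RC/RC:*Casp1*KO. Of these 10, *Slc5a2* and *Cubn* fell in RC/RC against WT, while *Lrp2* (1.52) and *Cubn* (1.34) were past the test as higher in RC/RC:*Casp1*KO than in RC/RC. Of 4 distal convoluted tubule markers 3 fell in RC/RC against WT, with *Slc12a3* at −2.03, and their summed level was 1509 ± 301 CPM in WT, 367 ± 155 in RC/RC and 829 ± 301 in RC/RC:*Casp1*KO. All 4 fibroblast markers, 4 of 5 macrophage markers, 3 of 4 T cell markers, 4 of 4 B cell markers and 3 of 4 injured tubule markers rose in RC/RC against WT, where 9.76% of all genes tested were called higher and 3.18% lower. Summed fibroblast markers, led by *Col1a1*, were at 152 ± 20.7 CPM in WT, 578 ± 214 in RC/RC and 235 ± 74.8 in RC/RC:*Casp1*KO, and 2 of the 4 fell in RC/RC:*Casp1*KO against RC/RC, *Dcn* by 1.46 and *Col1a1* by 1.87 on the log2 scale. Of 4 podocyte markers *Nphs1* fell in RC/RC against WT, and no marker of thick ascending limb, principal cells, intercalated cells or endothelium passed the edgeR test in any comparison.

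Sequence before the transcription start was compared over the 77 of 94 nuclear members found in the RefSeq promoter table (GRCm38.p6), using the 250 bases before the start on both strands. The NRF1 motif occurred in promoters of 18.2% of the members and 4.23% of 27025 genes. CCGGAAG, a match to the ETS motif bound by GABPA, occurred in 16.9% and 7.83%. A gene listed with several promoters was counted if any of them held the motif. The members are all protein-coding, while the 27025 genes were not filtered for this. The letters TCAAGGTCA (ERR) occurred in 1 of 77 (0.422% of all), and AAGATGGC (YY1) in 2 of 77 (1.83% of all). These matches describe sequence only.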

How the data were processed

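RNA-seq of poly(A) RNA was made from 12 kidneys, 4 per group. Per the submitters' processing notes, CASAVA 1.8, STAR (version not given) and mm10 were used. The counting tool, annotation and strand setting are not given in the sources used here. The deposited table holds whole-number read counts per gene, which the authors did not normalize. It also holds the authors' FPKM, group means and DESeq2 fold changes and p-values, which were not used here. Genes were tested on the counts for each pair of groups (8 mice) with edgeR 4.0.16 in R 4.3.3 (filterByExpr, TMM, quasi-likelihood test), with Benjamini-Hochberg adjustment over all genes tested and a threshold of 0.05. SE is the fold change over the root of F. CPM used TMM factors over 12 libraries. Alternatives used DESeq2 1.42.0, limma 3.58.1 on log2(FPKM + 1) and sva 3.50.0. In simulated counts for RC/RC against WT (15371 genes), every gene was given the same dispersion. There edgeR recovered 5, 29 and 100 of the genes changed 1.5-, 2- and 4-fold, 134 of 200 in all, with 5 false calls. Equal numbers of genes were changed 1.5-fold and 2-fold, and all genes changed 4-fold were recovered. Recovery at the spread of the members themselves was not simulated. Libraries of a group came from different mice, so agreement within counting noise alone could not be looked for. Their chi-square over its degrees of freedom ran from 15.75 to 127.7 in 18 pairs. Near copies share 98% identity or more over at least 80 bases, and over at least 200 bases where reads were added. The rule for members uses gene names alone, but this gene group and the lists were chosen with earlier results of these data known. Named were all mitochondrial genes, the nuclear members called or with the lowest p in each direction (up to 3 where few were called), isoform sets, catalytic subunits, 8 regulators and up to 3 called genes of each other list. *Uqcrq*, *Atp5g2*, *Ndufs7*, *Ndufs8*, *Ndufv2*, the genes beside *Ndufs5* and members called only under an alternative were named after their values were seen.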

Additional observations from a re-analysis of the deposited data

Results flagged for a closer look

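In 131 sets of 4 mice, 1 for each of the named members and groups that could be examined, 7 held a mouse far from the others by Dixon's test, where chance gives about 1 in 20. *mt-Nd4l* stood at 12.92 CPM in RC/RC mouse RC139, against 9.093 to 9.443 in the other RC/RC mice. *mt-Atp6* stood at 116.4 CPM in RC/RC:*Casp1*KO mouse Del3_42, against 79.35 to 85.45. *Cox4i2* stood at 1.668 CPM in WT mouse B6_2, against 0.6124 to 0.7544. *Atp5sl* stood at 62.95 CPM in RC/RC:*Casp1*KO mouse Del3_70, against 66.3 to 66.91. *Cox8b* stood at 43.94 CPM in RC/RC mouse RC139, against 0.1611 to 6.958, in the mouse with the most *Ucp1* and *Cidea* reads. *Cox7b2* stood at 0.04711 CPM in WT mouse B6_6 and 0.04602 CPM in RC/RC:*Casp1*KO mouse Del3_70, which is 1 read each, with 0 reads in the others.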

How the results depend on the processing

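No paired analysis was possible because the count columns carry no replicate number, only the group and a mouse number. There were 4892 values of named genes under the alternatives and with single mice left out. Of these, 4567 kept their side of the threshold, 244 lost a call, 80 gained one and 1 called value reversed. The reversal was *Ndufs5* in RC/RC against WT, at 0.21 with reads of its near copy added, a setting chosen after seeing the data. Values that were not called also changed sign with single mice left out. *Cox8b* in RC/RC:*Casp1*KO against RC/RC moved from −1.07 to 1.10 without RC/RC mouse RC139. In RC/RC against WT, DESeq2 called 5 nuclear genes (beside 12.6% of all genes it tested) and removal of the length trend 9 (beside 15.2%), with medians of −0.26 for nuclear and −0.34 for mitochondrial genes and 3 mitochondrial calls. In RC/RC:*Casp1*KO against RC/RC, DESeq2 called 5 nuclear genes (beside 13.3% of all genes). In RC/RC:*Casp1*KO against WT, DESeq2 and removal of the length trend each called 7 nuclear genes and 1 mitochondrial gene. Of all genes they called 5.89% and 2.65%. With 1 surrogate variable, 4 nuclear genes were called (beside 8.78%). With limma, scaling by library size alone, a dispersion shared by 12 mice and a filter of at least 1 count, 2 each were called. Of all genes these settings called 2.13%, 2.29%, 2.27% and 1.31%. Added near copies called 0 nuclear genes (beside 2.01%). Library size alone moved the median of all genes to 0.14 in that comparison. With 1 mouse left out, the nuclear calls ranged from 1 to 4 in RC/RC against WT, beside 7.51% to 15.7% of all genes. They fell to 1 without RC/RC mouse RC139, RC/RC mouse RC140 or WT mouse B6_6 (8.22%, 8.64% and 7.51% of all genes). They ranged from 0 to 21 between the RC groups (2.77% to 17.8% of all genes). In RC/RC:*Casp1*KO against WT they ranged from 1 to 6 (0.694% to 3.5% of all genes). The mitochondrial calls ranged from 0 to 1, 0 to 0 and 0 to 3. The 6 nuclear and 3 mitochondrial calls arose without RC/RC:*Casp1*KO mouse Del3_42 (3.5% of all genes called, 1.55% lower), and the mitochondrial call in RC/RC against WT (*mt-Nd4l*) without RC/RC mouse RC139. The nuclear medians then ranged from −0.11 to 0.06, −0.41 to −0.23 and −0.38 to −0.21. The causes were not tested. With 4 mice a group and no term for sex in the fits, p-values rest on the spread between these mice. This spread includes any difference between females and males. Few genes changed 1.5-fold were recovered in simulated counts, in which every gene had the same dispersion, so recovery for the members was not measured.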
